A study of Mus musculus with 24 samples.

Results

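Reg3a, Reg3b, Reg3g and Reg4 encode small secreted proteins of the regenerating (Reg) family, which share a C-type lectin fold. They are 4 of the 25410 gene symbols in the duodenal RNA-seq tables described here, were taken from the tables by symbol, and were examined across all 4 groups of the study. The set was chosen by measured values: its Reg3a differed most between the diets under vehicle, so the values of that comparison are given as a description and no test is made on them. All 4 genes had 1 entry per table and reached 0.5 RPKM (reads scaled to transcript length and to the size of the library) in 24 of 24 libraries.

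All animals were male Cyp27b1 null mice, which lack the enzyme that turns the vitamin D precursor into the active hormone 1,25(OH)2D3 (1,25D below). There was no group with an intact Cyp27b1 gene, and both diets were deficient in vitamin D. From weaning at 3 weeks the mice ate a normal diet with 0.47% calcium and 0.3% phosphorus, or a rescue diet with 2% calcium, 1.25% phosphorus and 20% lactose. At 8 weeks of age they were injected with vehicle or with 2 ng of 1,25D per g of body weight, and the duodenum was taken 6 h later. This gave 4 groups of 6 libraries: normal diet with vehicle, rescue diet with vehicle, normal diet with 1,25D and rescue diet with 1,25D. The labels do not tie libraries to single mice, so the p-values below measure the spread between libraries.

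The Reg3 proteins are released into the gut lumen by Paneth cells and enterocytes, where they bind bacterial cell wall components. Reg3g kills Gram-positive bacteria and helps to keep bacteria away from the epithelial surface, and its transcription is switched on by microbial signals that act through Myd88 and through the cytokine IL-22 with the transcription factor Stat3. Reg3b is a close relative with a role against Gram-negative bacteria, and Reg3a is a further member of the same subfamily. Reg4 is more distant, and in the small intestine it is known as a product of enteroendocrine and other secretory cells.

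In the RefSeq annotation Reg3b, Reg3d, Reg3a, Reg2, Reg1 and Reg3g follow each other in this order on chromosome 6, between Lrrtm1 and Gm20594, while Reg4 lies on chromosome 3. The 250 bases before each start site are shown because Reg3b and Reg3g varied together between libraries while Reg4 did not vary with them. All 4 genes matched an entry by symbol. The windows come from RefSeq on build GRCm38.p6, whereas the deposited tables were made on mm9. They lie at chr6:78370635-78370884 (plus strand) for Reg3b, chr6:78468875-78469124 (minus strand) for Reg3g, chr6:78380459-78380708 (plus strand) for Reg3a and chr3:98221906-98222155 (plus strand) for Reg4. Each is written 5′ to 3′ along its gene, and capitals mark matches on either strand to TTCNNNGAA, the letters Stat3 dimers favour, and to TATAAA, the TATA box.
Reg3b: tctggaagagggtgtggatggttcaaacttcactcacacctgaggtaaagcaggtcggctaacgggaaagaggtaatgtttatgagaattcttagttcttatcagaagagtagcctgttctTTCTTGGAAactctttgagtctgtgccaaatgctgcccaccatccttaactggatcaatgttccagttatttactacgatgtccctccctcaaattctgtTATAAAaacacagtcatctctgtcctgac
Reg3g: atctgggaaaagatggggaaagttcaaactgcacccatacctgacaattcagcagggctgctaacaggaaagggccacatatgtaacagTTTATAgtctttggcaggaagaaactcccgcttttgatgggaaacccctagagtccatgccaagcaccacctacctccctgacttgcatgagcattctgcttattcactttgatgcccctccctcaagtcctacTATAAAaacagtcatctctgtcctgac
Reg3a: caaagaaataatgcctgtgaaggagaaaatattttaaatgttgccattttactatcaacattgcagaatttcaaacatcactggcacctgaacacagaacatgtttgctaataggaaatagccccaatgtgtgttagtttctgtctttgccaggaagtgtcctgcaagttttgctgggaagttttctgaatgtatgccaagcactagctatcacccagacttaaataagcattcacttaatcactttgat
Reg4: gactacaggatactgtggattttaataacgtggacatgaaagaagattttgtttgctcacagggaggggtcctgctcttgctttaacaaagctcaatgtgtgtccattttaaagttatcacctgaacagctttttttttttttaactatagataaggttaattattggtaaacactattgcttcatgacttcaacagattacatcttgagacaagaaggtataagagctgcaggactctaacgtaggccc

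The Reg3b window held TTCTTGGAA from -129 to -121 and TATAAA from -29 to -24, counted from the start site. The Reg3g window held TATAAA from -27 to -22 and, on the opposite strand, TTTATA from -161 to -156. No match to either motif was found in the Reg3a and Reg4 windows. Of 32851 RefSeq windows of this length, 7.02% held TTCNNNGAA and 12.37% held TATAAA. A direct repeat of AGGTCA with a gap of 3 bases, of the kind bound by the vitamin D receptor, was in none of the 4 windows and in 0.01% of all windows. The last 20 bases before the start site, acagtcatctctgtcctgac, were identical in Reg3b and Reg3g, and their windows matched at 70.0% of aligned bases. The Reg3a window matched that of Reg3g at 70.1% and that of Reg3b at 49.2%. The 2 strands of a motif were searched together, and a match describes letters in the window, not a bound site.

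Sequence likeness also bears on how reads are assigned. In GENCODE transcripts Reg3b and Reg3g were 72.8% identical, Reg3a and Reg3b 74.1%, and Reg3a and Reg3g 69.9%. The longest identical run was 35 bases, between Reg3b and Reg3g, and no run of 50 bases was shared by any pair of the 4 genes. The sources used here give neither read length nor the handling of reads with several matches, so the split between Reg3 genes carries some uncertainty.

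Injection of 1,25D was visible in every treated library: Cyp24a1, the hormone-degrading enzyme that 1,25D induces, lay between 0.016 and 4.03 RPKM in the 12 vehicle libraries and between 92.1 and 1036 RPKM in the 12 treated ones. Summed RPKM per library ranged from 541395 to 697913, and relative depth, estimated from the steps between low values, from 0.616 to 1.66. The duodenal tissue held markers of epithelium throughout, with 13 general epithelial genes summing to between 1622 and 3407 RPKM. It also held transcripts of exocrine pancreas genes in very unequal amounts, as 25 of them summed to between 51.8 and 96121 RPKM. Ctrc was listed at 0 in 5 libraries, Sycn in 4, Pla2g1b in 3 and Prss1, Cela3b and Try5 in 1 each. Normal vehicle replicate 6 and rescue 1,25D replicate 4 stood apart from the other libraries in earlier results of these data, and values without them are given where they matter.

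Reg3b was the most abundant of the 4 genes and Reg3a the least, on the length-scaled RPKM. Over all 24 libraries the median was 580 RPKM for Reg3b, 111 for Reg3g, 57.2 for Reg4 and 4.31 for Reg3a. Reg3b exceeded Reg3g in 22 of 24 libraries, with a median ratio of 4.80 and a range from 0.784 to 12.9. The 2 exceptions were rescue vehicle replicates 5 and 6. Reg3g and Reg4 were not separated beyond their spread, since Reg3g was the higher in 18 of 24 libraries but in 3 of 6 of those from the normal diet with 1,25D. Reg4 exceeded Reg3a in all 24 libraries. Together the 4 genes made up between 0.026% and 1.27% of a library's summed RPKM.

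The Reg3 genes were among the most variable genes of the duodenum within groups, and Reg4 was not. Over all 24 libraries, which includes differences between groups, Reg3b lay between 67.8 and 5917 RPKM, a span of 87.3 times. Reg3g lay between 19.8 and 1495 RPKM. Within single groups the span of Reg3b was smaller. It ran from 9.72 times in rescue-diet vehicle libraries to 44.8 times in normal-diet treated libraries. The pooled standard deviation within groups, on the log2(RPKM + 0.5) scale, was 1.84 for Reg3b, 1.64 for Reg3g and 0.87 for Reg3a, against a median of 0.35 over the 20006 genes tested. That of Reg3b was larger than in 99.8% of those genes and that of Reg3a larger than in 95.3%. The value for Reg4, 0.37, was larger than in 55.6%, so Reg4 varied about as much as a typical gene.

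**Figure D1:**
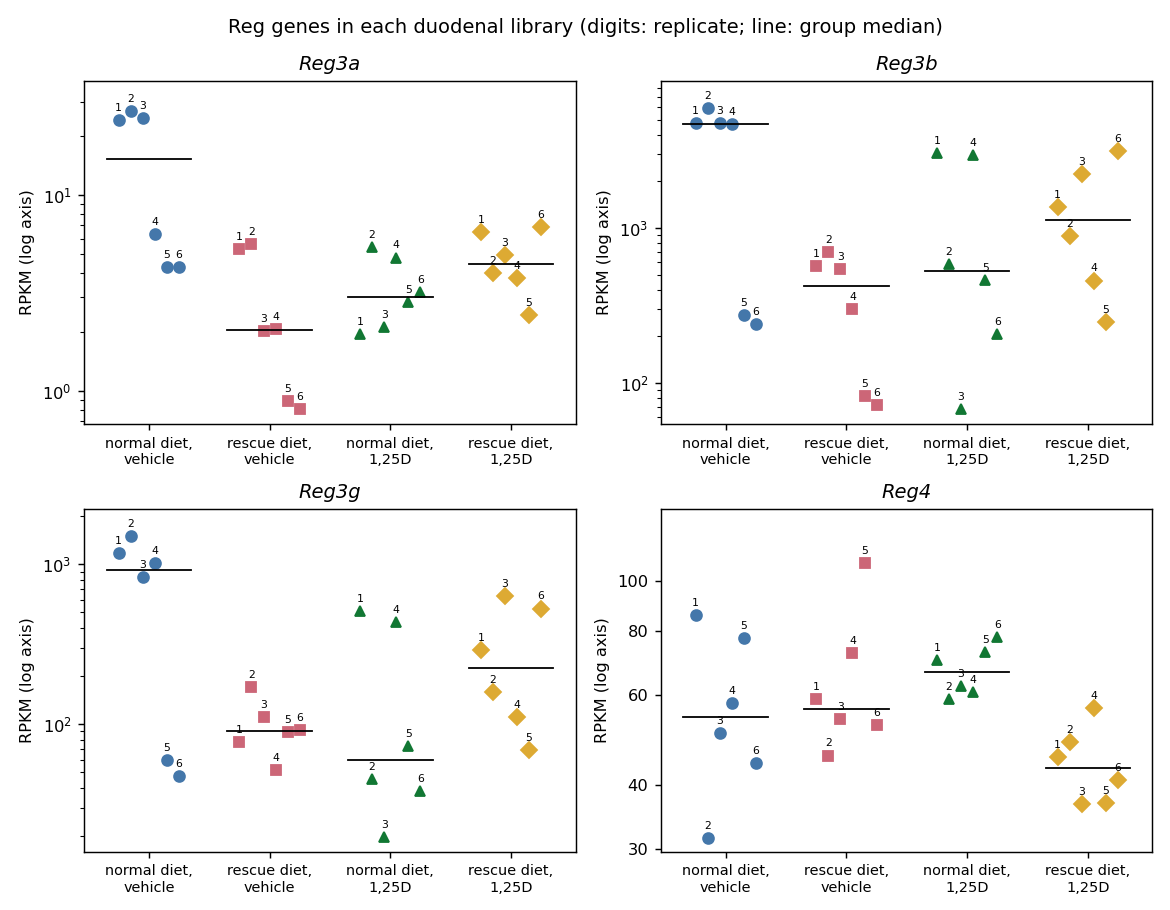
RPKM on a log axis of Reg3a, Reg3b, Reg3g and Reg4 in each of 24 libraries, by group, with the replicate number beside each point and a line at the group median. Reg3b and Reg3g of the normal diet with vehicle split into 4 high and 2 low libraries, while the Reg4 values of the rescue diet with 1,25D, from 36.7 to 56.5 RPKM, all lie below those of the normal diet with 1,25D.

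Under vehicle, the comparison on which Reg3a was chosen, Reg3a ranged from 4.30 to 26.8 RPKM on the normal diet with a median of 15.3. Its rescue-diet values ran from 0.805 to 5.61 RPKM with a median of 2.05. Replicates 1 to 3 of the normal diet, at 24.3, 26.8 and 24.9 RPKM, were high, and the groups overlapped through replicates 5 and 6. The means were 15.2 ± 11.2 and 2.78 ± 2.14 RPKM (SD, n = 6 each), a difference of -2.11 on the log2(RPKM + 0.5) scale.

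Reg3b under vehicle ranged from 240 to 5917 RPKM on the normal diet, with a median of 4712. With the rescue diet it lay between 71.6 and 696 RPKM with a median of 420. Among normal-diet libraries replicates 1 to 4 lay between 4664 and 5917 RPKM, whereas replicates 5 and 6, at 273 and 240, lay inside the range of the rescue diet. Replicates 5 and 6 were the lowest for Reg3b on the rescue diet too, at 82.7 and 71.6 RPKM. The labels name no batch for these numbers.

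Reg3g under vehicle had the same 4 high libraries on the normal diet, between 828 and 1495 RPKM, with replicates 5 and 6 at 59.3 and 47.3. Rescue-diet libraries lay between 51.8 and 172 RPKM with a median of 90.3. The normal diet was thus spread over both sides of the rescue diet. The log2 differences were -2.78 for Reg3b and -2.11 for Reg3g, and Reg4, with medians of 54.1 and 56.4 RPKM, differed by 0.19. None of the 4 members separated the vehicle groups without overlap, as 0.225% of all genes did, and nothing is read from these values because they chose the members.

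Exocrine pancreas genes also lay higher in the normal-diet vehicle group. The exocrine pancreas genes summed to 2564 to 96121 RPKM in normal-diet and to 87.4 to 14297 RPKM in rescue-diet vehicle libraries. Within groups, across 24 libraries, the Pearson r with that sum of deviations from the group mean was 0.18 for Reg3a, 0.10 for Reg3b and -0.07 for Reg3g, given as a description over libraries that also share their depth. Normal vehicle replicate 6, with the highest pancreas sum of all, had the lowest Reg3b and Reg3g of its group and a Reg3a of 4.31 RPKM. Replicates 1 to 3 of that group had pancreas sums of 18555, 14328 and 31023 RPKM beside Reg3a of 24.3, 26.8 and 24.9. Replicates 4 and 5 had sums of 2564 and 8811 RPKM beside Reg3a of 6.35 and 4.30. The part of pancreas transcripts in the Reg values was not tested. In bulk tissue, fewer cells of a type and less RNA per cell cannot be told apart, which holds for all values here.

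After 1,25D no Reg3 gene differed detectably between the diets. The 12 libraries compared took no part in the choice of Reg3a. The spread used in the test is pooled over all 4 groups, however, so the vehicle libraries enter the SE and p-values. Of 20006 genes tested with limma, 2 were called (0.01%), both lower on the rescue diet, with Benjamini-Hochberg adjusted p-values below the threshold of 0.05, and 0 of the 4 members were among them. At an unadjusted p under 0.05 there were 1676 genes, with Reg4 as the single member. The median log2 difference over all genes was 0.12 here and 0.10 under vehicle, and quantile normalization brought both to within 0.01 of 0. Relative to that median the differences were 0.33 for Reg3a, 0.68 for Reg3b, 1.17 for Reg3g and -0.73 for Reg4. In a fit of only the 2 groups compared, the limma adjusted p was 0.535 for Reg3a, 0.728 for Reg3b and 0.557 for Reg3g. The SE of Reg3a was 0.27 in that fit.

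Reg3b after 1,25D ranged from 67.8 to 3037 RPKM on the normal diet with a median of 525. Rescue-diet values reached from 246 to 3117 RPKM with a median of 1125. On the normal diet replicates 1 and 4, at 3037 and 2972 RPKM, stood apart, as the next highest was replicate 2 at 588. Rescue-diet values rose without such a gap and were highest in replicates 3 and 6, at 2235 and 3117. The ranges overlapped almost fully. The log2 difference was 0.79 (SE 0.96, 95% interval -1.19 to 2.77, limma adjusted p = 0.817). It was 0.18 without normal 1,25D replicate 3, the lowest library of that group, and 1.28 without replicate 1, the highest.

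Reg3g followed the same libraries. It lay between 19.8 and 509 RPKM on the normal diet, with a median of 59.3, and replicates 1 and 4 were again the high ones. Between 68.7 and 637 RPKM were measured on the rescue diet, with a median of 225, highest in replicates 3 and 6. The log2 difference of 1.28 had an interval from -0.48 to 3.05 (SE 0.86, limma adjusted p = 0.722), which covers both directions.

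Reg3a after 1,25D ranged from 1.95 to 5.41 RPKM on the normal diet with a median of 3.01. The rescue diet gave 2.45 to 6.91 RPKM with a median of 4.46. The groups overlapped, and the log2 difference was 0.45 (SE 0.46, 95% interval -0.49 to 1.39, limma adjusted p = 0.789). Whether this difference departs from the -2.11 measured under vehicle was not tested, since the vehicle values chose the gene.

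Reg4 after 1,25D was the member whose diets did not overlap. It ranged from 58.9 to 77.8 RPKM on the normal diet with a median of 66.3, and the rescue diet gave 36.7 to 56.5 RPKM with a median of 43.2. Every rescue library lay below every normal library, as did 55 of 20006 genes (0.275%). The means were 67.2 ± 7.58 and 44.1 ± 7.63 RPKM (SD, n = 6 each), and the log2 difference was -0.61 (SE 0.20, 95% interval -1.03 to -0.19).

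This difference did not pass the correction over all genes, with a limma adjusted p of 0.449. An exact permutation test of Reg4 alone, two-sided over 924 splits, gave p = 0.00216, the smallest such a test can give; it is 1 of 12 such tests on the members and is not adjusted. In a fit of only the 2 groups compared, the SE of Reg4 was 0.12, its limma adjusted p was 0.0890, and 0 genes were called. With limma's array weights, which count libraries by their noise, the adjusted p was 0.0309 and 1287 genes were called. When each of the 24 libraries was left out in turn the adjusted p lay between 0.232 and 0.851.

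Enteroendocrine markers were lower beside Reg4 in this comparison. The 16 marker genes, none of them at 0 in any library, summed to between 248 and 321 RPKM on the normal diet with 1,25D and to between 145 and 229 on the rescue diet, with no overlap. None of the 16 was called, 6 had an unadjusted p under 0.05 and 3 lay above 0, with a median log2 difference of -0.16 against 0.12 for all genes. Gip, an incretin hormone, averaged 27.7 RPKM on the rescue diet and 56.2 on the normal diet (log2 -1.13, limma adjusted p = 0.141). Chga, a granule protein of endocrine cells, differed by -0.63, and Cck, the hormone cholecystokinin, by -0.59 without overlap. Goblet cell genes, another secretory set, summed to between 2021 and 2758 RPKM on the normal diet and to between 1387 and 2535 on the rescue diet. Their median log2 difference was -0.10, with 4 of 10 above 0. Enterocyte markers were lower too, with 0 of 12 above 0, 10 at an unadjusted p under 0.05 and a median of -0.997. In contrast, 16 of 16 Paneth cell markers lay above 0 with a median of 0.32. The part of any of these in the Reg4 difference was not tested.

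Across all 24 libraries the deviations of Reg4 from its group mean had a Pearson r of 0.46 and a Spearman rho of 0.54 with those of the summed enteroendocrine genes, and of 0.53 and 0.51 with the summed Paneth cell genes. With the exocrine pancreas genes r was -0.41. These are descriptions over libraries that share depth and tissue composition.

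**Figure D2:**
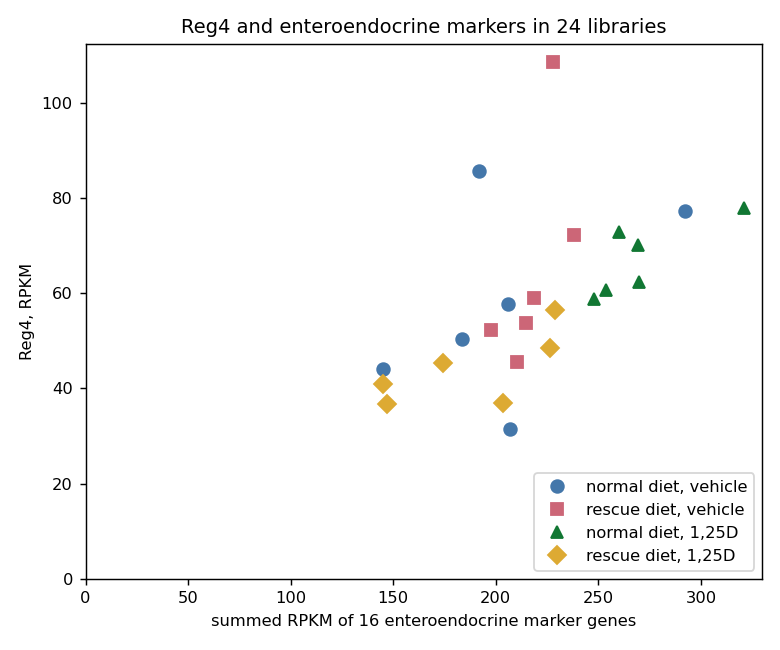
Reg4 in RPKM against the summed RPKM of 16 enteroendocrine marker genes, 1 point per library, coloured by group. The 6 libraries of the normal diet with 1,25D reach from 248 to 321 on the horizontal axis and reach from 58.9 to 77.8 on the vertical axis, and those of the rescue diet with 1,25D reach from 145 to 229 and from 36.7 to 56.5.

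Treatment with 1,25D was next compared with vehicle on each diet. These comparisons use the vehicle libraries on which Reg3a was chosen, so they are not independent of that choice and Reg3a is given in them as a description. Their treated libraries are those of the diet comparison after 1,25D, and they have no library in common with each other. On the normal diet 368 of 20006 genes were called (1.84%), and 0 of the other 3 members were among them. For the rescue diet 29 were called (0.145%), again with 0 of these 3 members.

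On the normal diet Reg3a ranged from 4.30 to 26.8 RPKM under vehicle and from 1.95 to 5.41 after 1,25D, with medians of 15.3 and 3.01. Of the 6 treated libraries, 4 lay below every vehicle library. The log2 difference was -1.69, and no test of it is given, because the gene was chosen on these vehicle values.

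Reg3b on the normal diet had a mean of 3439 ± 2507 RPKM under vehicle and of 1222 ± 1393 after 1,25D (SD, n = 6 each). Both groups held high and low libraries and overlapped. The log2 difference was -1.70 (SE 0.96, 95% interval -3.68 to 0.28, limma adjusted p = 0.547). Without normal 1,25D replicate 3, the lowest library, it was -1.09, and without normal vehicle replicate 6 it was -2.29. For Reg3g the means were 770 ± 596 and 187 ± 223 RPKM and the log2 difference -2.14 (SE 0.86, limma adjusted p = 0.263). Leaving out the same libraries in turn gave -1.70 and -2.75 for Reg3g. For Reg4 the means were 57.8 ± 20.5 and 67.2 ± 7.58 RPKM and the log2 difference 0.28 (SE 0.20, limma adjusted p = 0.706).

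On this diet the exocrine pancreas genes differed in the same direction as the Reg3 genes. None of the 25 was called, 23 had an unadjusted p under 0.05, and 0 lay above 0, with a median of -3.36 against 0.05 for all genes. Their sum ranged from 2564 to 96121 RPKM under vehicle and from 51.8 to 19933 after 1,25D. Paneth cell markers gave 0 of 16 called and 0 above 0, with a median of -0.52. Enterocyte markers gave 3 of 12 called, all higher, and 12 of 12 above 0, with a median of 1.19. The part of these in the Reg3 values was not tested.

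On the rescue diet the Reg3 means were higher after 1,25D, and neither Reg3b nor Reg3g passed the correction over all genes. Reg3b averaged 377 ± 265 RPKM under vehicle and 1384 ± 1107 after 1,25D, and 4 of the 6 treated libraries lay above every vehicle library. The log2 difference was 1.88 (SE 0.96, 95% interval -0.10 to 3.86, limma adjusted p = 0.878). Exact permutation tests gave p = 0.0498 for Reg3b alone and 0.0563 for Reg3g alone. They are among 12 such tests on the members, are not adjusted, and use vehicle libraries on which Reg3a was chosen, so nothing is read from them. For Reg3g the means were 98.8 ± 40.7 and 299 ± 234 RPKM and the log2 difference 1.26 (SE 0.86, limma adjusted p = 0.878). For Reg3a they were 2.78 ± 2.14 and 4.76 ± 1.71 RPKM and 0.88, with no test given. The SE values above are pooled over all 4 groups. In a fit of only the 2 groups compared, the SE was 0.71 for Reg3b and 0.49 for Reg3g, with a limma adjusted p of 0.860 for both.

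Reg4 on the rescue diet averaged 65.2 ± 23.0 RPKM under vehicle and 44.1 ± 7.63 after 1,25D. Of the treated libraries 4 lay below every vehicle library, and the log2 difference was -0.51 (SE 0.20, 95% interval -0.93 to -0.09, limma adjusted p = 0.878). The exact permutation test of Reg4 alone, not adjusted and with the vehicle libraries on which Reg3a was chosen, gave p = 0.0216. The exocrine pancreas genes on this diet summed to 87.4 to 14297 RPKM under vehicle and to 58.6 to 33228 after 1,25D, with means of 4262 and 7918 and medians of 2759 and 2769. Of the 25 genes, 0 were called and 7 lay above 0, with a median of -0.29.

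**Figure D3:**
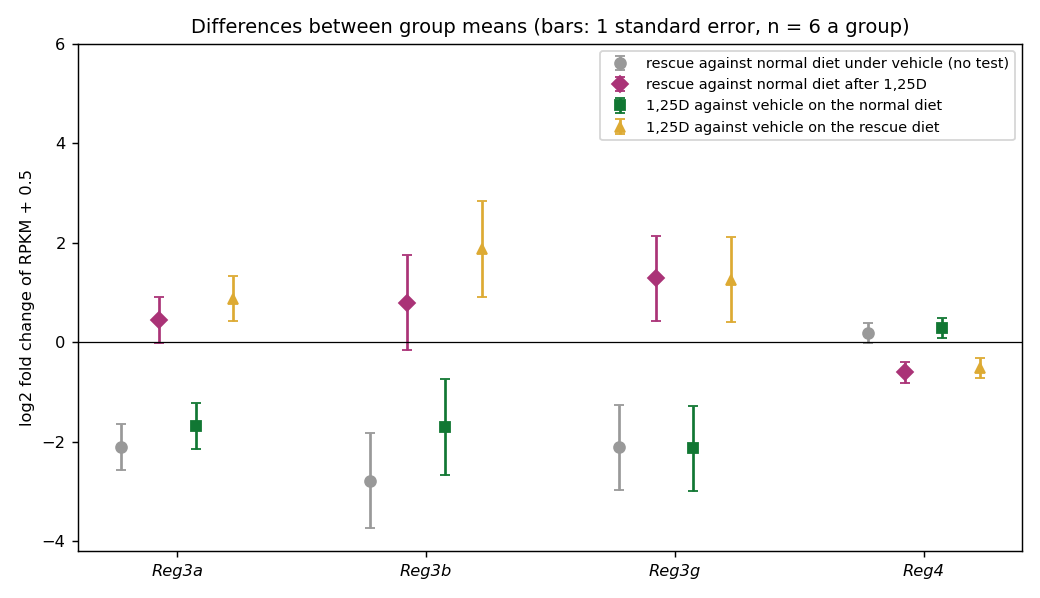
Log2 fold change of RPKM + 0.5 for each member in 4 comparisons, with bars of 1 standard error from the limma fit (n = 6 libraries a group). The comparison under vehicle, in grey, chose the members and has no test; the bars of Reg3b, with a standard error of 0.96, are wider than those of Reg4, at 0.20.

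Reg3b and Reg3g varied together from library to library, a property the choice of Reg3a did not use. Deviations from the group mean of log2(RPKM + 0.5) had a Pearson r of 0.90 and a Spearman rho of 0.90 over 24 libraries. The permutation p, with libraries shuffled within groups 100000 times, was 1e-05 for both, the smallest it can give, and 6e-05 after Benjamini-Hochberg adjustment over the 6 pairs of members. Without the 2 libraries farthest from the median r was 0.87.

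Within groups of 6, r was 0.96 on the normal diet with 1,25D and 0.98 on the rescue diet with 1,25D. For the normal diet with vehicle it was 0.996, which rests on the gap between 4 high and 2 low libraries; leaving that group out gave 0.85 over the other 18. In rescue-diet vehicle libraries r was 0.29, as Reg3g stayed at 89.3 and 91.3 RPKM in replicates 5 and 6 while Reg3b was at 82.7 and 71.6.

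Reg3a varied with Reg3b less closely, with r = 0.70 and rho = 0.68 (adjusted permutation p = 0.00126 and 0.00162). Within groups r was 0.82 and 0.90 on the normal and rescue diet with vehicle and 0.25 and 0.90 with 1,25D. Reg3a and Reg3g had r = 0.54 (adjusted permutation p = 0.0324) and rho = 0.48 (0.0702), and without the 2 farthest libraries r was 0.48 with an adjusted permutation p of 0.140, so the call was lost while r was similar. Leaving out the normal diet with vehicle gave r = 0.26. Reg4 had r of -0.31, -0.24 and -0.17 with Reg3a, Reg3b and Reg3g (adjusted permutation p 0.384, 0.384 and 0.502).

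**Figure D4:**
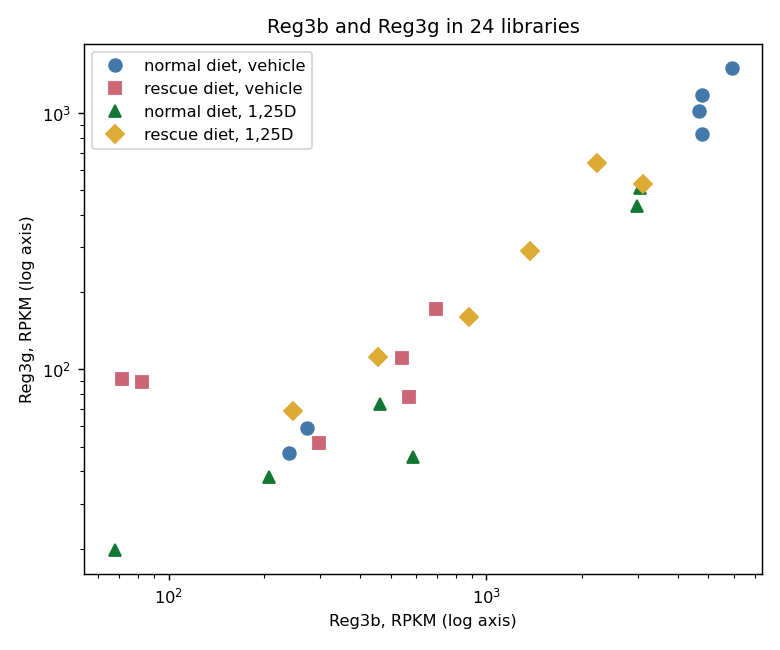
Reg3g against Reg3b in RPKM, both on log axes, 1 point per library and coloured by group. Reg3b lay above Reg3g in 22 of 24 libraries, and the 2 points to the left of the main band are rescue vehicle replicates 5 and 6, with ratios of 0.926 and 0.784.

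Among the 15723 tested genes that averaged at least 1 RPKM, Reg3g was the gene whose deviations were most like those of Reg3b, and Reg3b the one most like Reg3g. After it came Mgat4c (r = 0.87), Bcl2l15 (0.84), Cpn2 (0.82) and Ccdc116 (0.80) for Reg3b, and Bcl2l15 (0.83), B3galt5 (0.80), Oxct1 (0.79) and Gmds (0.79) for Reg3g. For Reg3a the 5 highest were Gm3033 (0.85), Adck4 (0.81), Gm2663 (0.79), Obfc2a (0.78) and AV249152 (0.77). For Reg4 the highest were LOC100503795 and Gm7187, both at 0.70, then Lpar6 (0.68), Slc38a4 (0.68) and Gm15284 (0.67). These r values are over 24 libraries, were the highest of many, and carry no test.

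The pathway known to switch on Reg3 genes was present at the level of its receptors and kinases. Stat3 ranged from 8.20 to 21.1 RPKM, the IL-22 receptor chains Il22ra1 and Il10rb had medians of 8.25 and 33.3 RPKM, while the cytokine Il22 had a median of 0.095 RPKM and was listed at 0 in 7 libraries; these genes were chosen after their values were seen. In rescue against normal diet after 1,25D, 0 of 20 tested genes of the IL-22 and STAT3 list (25 found) were called and 4 had an unadjusted p under 0.05, with a median log2 difference of 0.01 against 0.12 for all genes. Jak2, a kinase upstream of Stat3, averaged 36.0 RPKM on the rescue diet and 46.2 on the normal diet (log2 -0.39, limma adjusted p = 0.548), and Osmr, the oncostatin M receptor, differed by -0.43. With 1,25D against vehicle, 0 of the 20 were called on either diet.

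Microbial sensing genes, the other known input, gave 0 of 22 called and a median of 0.12, beside 0.12 for all genes. Myd88, the adaptor of most Toll-like receptors, averaged 12.9 RPKM on the rescue diet and 10.4 on the normal diet after 1,25D (log2 0.29, limma adjusted p = 0.552), Tlr1 differed by 0.47 and the kinase Irak1 by 0.39. Deviations of the summed list had r of 0.56 with Reg3b and 0.55 with Reg3g over 24 libraries, and of -0.13 with Reg4, as a description. The sum is weighted to abundant genes, as Pycard, Il18 and Nlrp6 had medians of 73.7, 70.9 and 48.9 RPKM and Myd88 of 11.5. Summed general epithelial markers had r of 0.43 with Reg3b and 0.49 with Reg3g, and summed secreted antimicrobials of 0.38 and 0.52.

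No gene of the secreted antimicrobial list was called between the diets after 1,25D. Of 30 genes listed, 27 were found and 22 tested, 0 were called and 16 lay above 0, with a median of 0.17 against 0.12. Sprr2a3, of a family of small proline-rich proteins, averaged 30.5 RPKM on the rescue diet and 13.3 on the normal diet (log2 0.85, limma adjusted p = 0.704). Pla2g2a, a bactericidal phospholipase of Paneth cells, differed by 0.58, and Zg16, a goblet cell lectin that binds Gram-positive bacteria, by -0.59. In the comparisons with vehicle 0 of the 22 were called on the normal diet and 0 on the rescue diet. MHC class II genes, which many epithelial cells raise under inflammation, gave 0 of 7 called and a median of 0.21.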

How the data were processed

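Duodenal RNA was sequenced in 24 libraries. Per the labels' protocols, ribosomal RNA was removed and directional libraries were made with ScriptSeq v2. The submitters' processing notes name TopHat and build mm9, and no source used here gives the quantifier or gene models. Each deposited table holds RPKM values, per the file headers, in 30795 entries for 25410 symbols. Read totals are not part of the tables, and relative depth was instead taken from 1629 rarely detected entries, where 72.8% of library pairs matched within 0.05 (log2).

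Entries sharing a symbol were summed (3470 symbols). limma 3.58.1 (R 4.3.3) with an intensity trend was run on log2(RPKM + 0.5), which understates changes of low genes, for 20006 genes at 0.5 RPKM or more in 6 libraries, in 1 fit of 4 group means (20 residual degrees of freedom). Tests were two-sided, adjusted by Benjamini-Hochberg over all genes and called under 0.05. Means and SD are of RPKM. Correlations and exact tests used Python 3.11.15 and scipy 1.17.1, and the fit was tested on simulated data. Named genes were the 4 members, the other Reg genes, the 5 genes most like each member, Cyp24a1 and up to 3 genes per list (16 lists) with the smallest unadjusted p after 1,25D; 1 of these is not reported here. Tests of Reg3a against vehicle were fitted but are not used, as its vehicle values chose it. Members and lists were chosen with earlier results of these data known. Alternatives covered pseudocount, filter, scaling, library weights, replicate block, samples in the fit and left-out libraries.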

Additional observations from a re-analysis of the deposited data

How the results depend on the processing

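No member's difference changed direction under any alternative run. For Reg3a, 1,25D against vehicle on the normal diet, the log2 difference of -1.69 rests on the vehicle values that chose the gene, so its size alone is given. It was -1.57 with a pseudocount of 1, -1.74 after quantile normalization, -1.75 after median-of-ratios scaling and -1.71 with array weights. Without normal vehicle replicate 6 and rescue 1,25D replicate 4 it was -1.95. A filter of 1 RPKM in 12 libraries and the exact permutation run use the same values of Reg3a, so the -1.69 there could not move. In 24 fits that left out 1 library the difference ranged from -1.95 to -1.44. The exact permutation test of Reg4 alone between the diets after 1,25D, not adjusted over genes, gave p = 0.00216 at -0.61. With 1,25D on the rescue diet the differences were 1.88 for Reg3b and -0.51 for Reg4. The exact permutation tests there use vehicle libraries on which Reg3a was chosen, so nothing is read from them. Array weights gave Reg4 -0.59 between the diets.

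Counts of called genes moved with the settings. Between the diets after 1,25D, where 2 genes were called, there were 1 with no filter, 4 after quantile normalization, 1 after median-of-ratios scaling, 0 in a fit of the 2 groups, 1287 with array weights, 1 with the highest entry per symbol and 57 without the 2 libraries that stood apart; leaving out 1 library gave 0 to 14. With 1,25D on the rescue diet, where 29 were called, there were 52, 11 and 90 with quantile normalization, the 2-group fit and array weights, and 12 to 48 with 1 library left out. On the normal diet leaving out 1 library gave 200 to 453. The cause was not tested. The correlation of Reg3a and Reg3g was 0.49 after quantile normalization (adjusted permutation p = 0.0779) and 0.48 without the 2 farthest libraries.

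Replicate numbers recur in all groups, but over all tested genes same-numbered libraries did not vary together: r of their deviations ran from -0.37 to 0.35. In each 1,25D comparison only 1 of 6 libraries was most like its own number (0 of 6 in each diet comparison). This is not a check of the members, as replicates 5 and 6 had the lowest Reg3a and Reg3b in both vehicle groups. Each replicate number occurs in every group, so a replicate block cannot move a difference of group means, and Reg3a on the normal diet was -1.69 by design. The block can change the SE. Between the diets after 1,25D the SE went from 0.46 to 0.39 for Reg3a and from 0.96 to 0.82 for Reg3b. It went from 0.86 to 0.82 for Reg3g and from 0.20 to 0.18 for Reg4, and 1 gene was called.

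The absolute read number behind each RPKM is unknown, so no counting error is given. With 6 libraries a group, the width of the Reg3b and Reg3g intervals is set by the spread between libraries.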

Other observations

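The chromosome 6 cluster also holds Reg1, Reg2 and Reg3d. Reg1 was abundant throughout, from 497 to 3105 RPKM. After 1,25D it ranged from 1745 to 3105 RPKM on the normal diet and from 559 to 1710 on the rescue diet. Every rescue library lay below every normal library (log2 -0.93, SE 0.29), which held for 0.275% of all genes, and the limma adjusted p was 0.423.

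Reg2 was the most uneven of the family, with a within-group standard deviation of 2.70 on the log2 scale, larger than in 99.9% of genes tested. In the normal diet group with 1,25D, replicates 2, 5 and 6 stood at 597, 551 and 558 RPKM and the other 3 between 7.79 and 20.4. The high Reg2 libraries were not the high Reg3b libraries of that group, which were replicates 1 and 4. None of the rescue-diet vehicle libraries exceeded 8.53 RPKM. Reg3d had 2 entries, which were summed. On the normal diet it ranged from 3.98 to 21.7 RPKM with vehicle and from 0.367 to 11.2 with 1,25D. The log2 difference of Reg3d there was -2.26 (SE 0.65, limma adjusted p = 0.0754), beside -1.69 for Reg3a. Its rescue-diet values ran from 0 to 6.26 RPKM with vehicle and from 1.61 to 19.4 with 1,25D (log2 1.44), beside 0.88 for Reg3a. Between the diets Reg3d differed by -2.61 under vehicle, where Reg3a differed by -2.11, and by 1.09 after 1,25D, where Reg3a differed by 0.45. Apart from the diet comparison after 1,25D, these differences use vehicle libraries on which Reg3a was chosen. Nothing is read from the likeness of Reg3d and Reg3a in them.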
